A study of Mus musculus with 6 samples.

Results

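Osteoclast fusion and RANK genes are the genes that a myeloid precursor uses to receive the osteoclast signal, to fuse with its neighbours and to resorb bone. The set was given by name as 8 genes: *Tnfrsf11a*, *Nfatc1*, *Dcstamp*, *Ocstamp*, *Acp5*, *Calcr*, *Oscar* and *Atp6v0d2*. Its members were the rows of the deposited expression matrix that carry 1 of these names, and 6 of the 8 had a row among the 22248 genes listed. *Ocstamp*, a membrane protein of osteoclast fusion, and *Calcr*, the calcitonin receptor, had no row and were not analysed here. Of the 6, 4 genes (*Tnfrsf11a*, *Nfatc1*, *Acp5* and *Atp6v0d2*) reached a mean of 1 FPKM and entered the fit with 11687 genes in all. *Dcstamp* and *Oscar* did not reach it and are described by their values.

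Total RNA was sequenced from unstimulated bone-marrow-derived macrophages (BMDMs) of *Lyz2*cre mice, the controls (n = 3), and of *Cited2* fl/fl:*Lyz2*cre mice, whose macrophages are called CITED2-deficient here (n = 3). All 6 libraries carried the *Lyz2*cre allele, so that the floxed *Cited2* alleles were the labelled difference, and all came from C57BL/6 mice labelled as postnatal week 10, while the methods of the study give a younger age. The BMDMs were grown from marrow with macrophage colony-stimulating factor (M-CSF), and the methods of the study name no RANK ligand in the culture. *Lyz2*cre drives recombination in macrophages and also in other myeloid cells such as neutrophils. Some *Cited2* transcript remained, as the gene stood at 71.7, 79.3 and 75.5 FPKM in the controls and at 9.27, 7.22 and 7.53 FPKM in the CITED2-deficient BMDMs. The labels do not say whether the 3 libraries of a group came from separate mice or cultures, so the p-values measure the spread between these libraries, which may be technical.

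In osteoclast formation, M-CSF acts through its receptor CSF1R to keep precursors alive and makes them express RANK, the product of *Tnfrsf11a*. RANK ligand from stromal cells and osteoblasts then signals through TRAF6, NF-κB, AP-1 and calcineurin to NFATc1, the master transcription factor of the lineage. A second signal comes from receptors such as OSCAR, TREM2 and SIRPβ1, which pair with the adaptors FcRγ (*Fcer1g*) and DAP12 (*Tyrobp*). NFATc1 switches on the fusion genes *Dcstamp* and *Atp6v0d2* and the late genes *Acp5*, *Calcr*, *Oscar* and *Ctsk*. BMDMs are close to the cells from which osteoclasts are made, and in M-CSF alone they remain macrophages.

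The promoters of these genes differ in base composition. RefSeq promoter entries (build GRCm38.p6) were found for 4 of the 8 members, and the 250 bases before the start are shown for a member that BMDMs expressed well, a member at a low level and a member near 0. Capitals mark the core that NFAT proteins bind, GGAAA or TTTCC on the other strand. A match to these letters is a description of the sequence and not a bound site.

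*Tnfrsf11a*, plus strand, chr1:105780473-105780722: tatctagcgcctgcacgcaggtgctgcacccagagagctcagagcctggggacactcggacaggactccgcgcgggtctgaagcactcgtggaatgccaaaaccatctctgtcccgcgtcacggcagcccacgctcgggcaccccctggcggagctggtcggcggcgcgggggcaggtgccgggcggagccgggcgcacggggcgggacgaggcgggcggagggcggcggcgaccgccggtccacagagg
*Acp5*, minus strand, chr9:22135747-22135996: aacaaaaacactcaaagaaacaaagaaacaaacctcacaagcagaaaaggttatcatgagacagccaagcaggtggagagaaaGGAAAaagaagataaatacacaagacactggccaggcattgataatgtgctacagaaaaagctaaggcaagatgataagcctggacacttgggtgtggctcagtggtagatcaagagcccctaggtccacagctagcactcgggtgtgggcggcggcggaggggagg
*Oscar*, minus strand, chr7:3616158-3616407: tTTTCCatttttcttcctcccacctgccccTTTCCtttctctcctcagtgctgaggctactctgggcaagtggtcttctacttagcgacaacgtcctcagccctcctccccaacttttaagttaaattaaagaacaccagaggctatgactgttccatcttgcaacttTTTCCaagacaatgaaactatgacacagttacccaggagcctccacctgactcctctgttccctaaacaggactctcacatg

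The *Tnfrsf11a* promoter was rich in G and C, with 73.6% GC and 31 CpG dinucleotides, against a median of 52.4% and 6 over all 32851 promoters of this length. It held no NFAT core. The *Oscar* promoter was at 47.2% GC with 2 CpG dinucleotides and held 3 NFAT cores, and the *Acp5* promoter was at 48.0% GC with 4 CpG dinucleotides and held 1. *Acp5* has 2 further entries at starts within the gene, at 61.2% and 54.4% GC, with 1 and 2 NFAT cores. *Calcr* has 2 entries, with 0 and 1 NFAT cores. An NFAT core stood in 55.6% of all promoters. The AP-1 letters TGANTCA, which read alike on both strands, stood in 6.75% of all promoters and in none of the 7 entries of these genes.

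Read back from the FPKM steps, the libraries held 17289286 to 18952080 fragments in the controls and 22583993 to 26100406 in the CITED2-deficient BMDMs, and the latter were on average 1.34 times as deep. Macrophage markers summed to 5976 to 6044 FPKM in the controls and to 5386 to 5477 FPKM in the CITED2-deficient BMDMs, so the labelled cell type was present in every library. Of these 9 markers, 6 were lower (among them *Mrc1* and *Lyz2*, with log2 fold changes of −1.76 and −1.59), 1 was higher (*Fcgr1*) and 2 did not pass. *Lyz2* is also the gene of the Cre allele, and the part of this allele in its level was not tested. Granulocyte markers summed to 741 to 810 FPKM and to 666 to 784 FPKM, and of 9 tested 6 were lower (among them *Mpo*, at −2.54), 2 were higher (*Ltf* and *Retnlg*) and 1 did not pass. Markers of fibroblast or stromal cells were much higher in the CITED2-deficient libraries, at 559, 181 and 182 FPKM in replicates 1 to 3 against 44.6 to 54.1 FPKM in the controls, and all 8 that were tested of 9 were higher. Markers of osteoblasts summed to 53.5, 8.75 and 8.45 FPKM against 2.63 to 3.80 FPKM. Of 3 tested, 2 were higher (*Runx2* and *Alpl*) and 1 did not pass (*Ibsp*). *Bglap2* and *Dmp1* were at 0 in every control, but had only 2, 0 and 0 and 17, 2 and 0 fragments in the CITED2-deficient libraries. *Bglap* and *Tnfsf11*, also near 0, had slightly lower means there. CITED2-deficient replicate 1 stood apart on these lists, with *Alpl* at 31.6 FPKM and *Ibsp*, a bone matrix protein, at 13.7 FPKM. The part of these markers in the results below was not tested, and the counts of calls are also given without that library. In bulk RNA, fewer cells of a type and less RNA per cell cannot be told apart.

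The 9 of 11 osteoclast markers that had a row, 6 of them members, summed to 247 to 260 FPKM in the controls and to 304 to 309 FPKM in the CITED2-deficient BMDMs, without overlap. *Atp6v0d2* makes up most of this sum, so the sum says little about the other osteoclast genes. Of the 7 markers tested, 2 were higher (*Atp6v0d2* and *Ctsk*), 2 were lower (*Nfatc1* and *Mmp9*) and 3 did not pass. That is 57.1% called, against 51.3% of all genes. Leaving out 1 library kept 2 higher and gave 0 to 2 lower, with 1 lower without CITED2-deficient replicate 1.

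Of the 4 members tested, *Atp6v0d2* was higher, *Nfatc1* was lower, and *Tnfrsf11a* and *Acp5* did not pass the test. The test was limma on log2(FPKM + 1) with Benjamini-Hochberg adjustment over all 11687 genes at an adjusted p of 0.05. In this comparison 51.3% of all genes passed, 16.7% higher and 34.6% lower, so 2 of 4 is the share of the background. The counts of the pathway lists below, as deposited, are to be read against the same shares. Without CITED2-deficient replicate 1, 5475 genes were called instead of 5994, and *Atp6v0d2* and *Nfatc1* passed as before. Leaving out any 1 library gave 5211 to 5475 calls. The calls over all genes depended on the scaling. Under median-ratio scaling, which divides a library by the median of its ratios to the genes' geometric means, 44.5% passed, and 50.5% of the calls were higher instead of 32.5%. The median log2 fold change of all genes was −0.10 as deposited and −0.014 under that scaling, and the members moved with it: 3 of 4 (*Tnfrsf11a*, *Acp5* and *Atp6v0d2*) then passed as higher and none as lower. In 3 of the 4 (*Nfatc1*, *Acp5* and *Atp6v0d2*) the groups did not overlap, as in 59.9% of all genes.

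**Figure D1:**
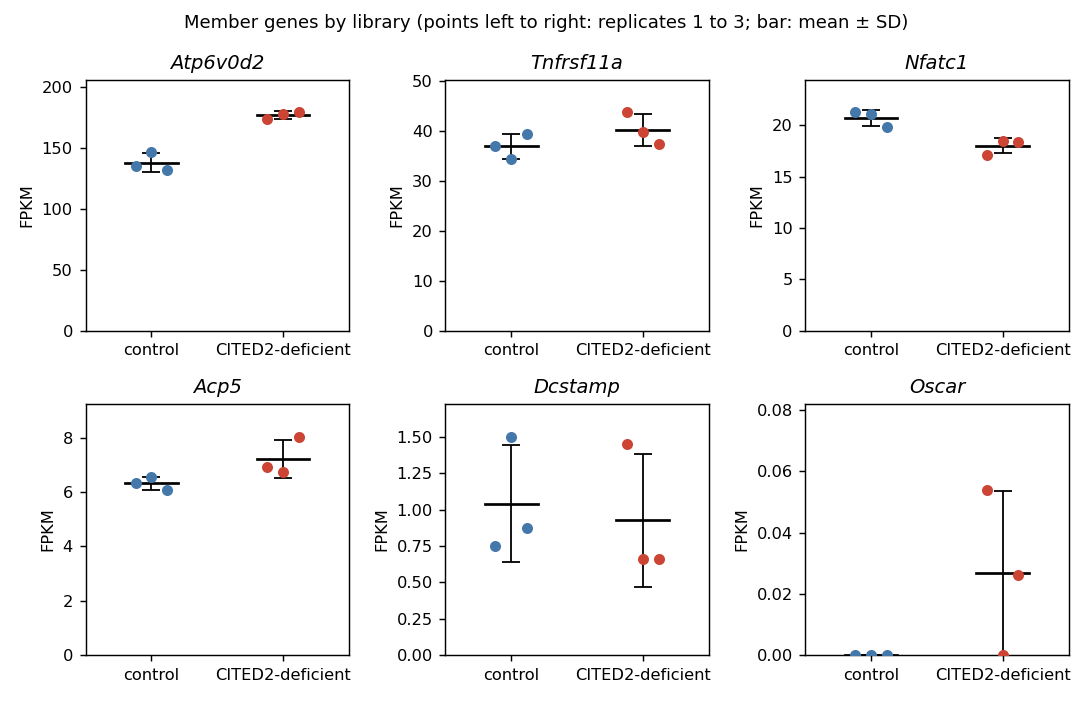
FPKM of the 6 members with a row, on linear axes from 0, for 3 control (blue) and 3 CITED2-deficient (red) libraries; points are libraries in the order of their replicate number, and bars are the mean ± SD. The groups of Atp6v0d2 lie apart (131.8 to 147.1 against 173.6 to 179.2 FPKM), those of Nfatc1 lie apart in the opposite direction, and those of Tnfrsf11a and Dcstamp overlap.

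*Tnfrsf11a* (ENSMUSG00000026321), which encodes RANK, was already well expressed in M-CSF-grown BMDMs. The gene lies on the plus strand at chr1:105780718-105847981 (mm10), downstream of the GC-rich promoter shown above. Its level was 37.0, 34.3 and 39.5 FPKM in the controls and 43.7, 39.8 and 37.4 FPKM in the CITED2-deficient BMDMs. The lowest CITED2-deficient library lay below the highest control, so the groups overlapped. The means were 36.9 ± 2.59 and 40.3 ± 3.20 FPKM (SD, n = 3 each). The log2 fold change was 0.12 ± 0.067 (SE), with a 95% interval of −0.030 to 0.28 and an adjusted p of 0.159 in limma. Under median-ratio scaling it was 0.22 with an adjusted p of 0.0202. Without CITED2-deficient replicate 1, the library with the high stromal and osteoblast markers, it was 0.064, and without control replicate 2 it was 0.073. Between 1320 and 2473 fragments a library stood behind these values, and 86.3% of the listed genes had a lower mean FPKM.

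Of the ligands that act on these receptors, *Csf1* was higher and RANK ligand was hardly detected. *Tnfsf11*, which encodes RANK ligand, was near 0 in every library, with 3, 4 and 3 fragments in the controls and 1, 4 and 4 in the CITED2-deficient BMDMs. *Tnfrsf11b*, which encodes osteoprotegerin, the decoy receptor that binds RANK ligand, had 13, 7 and 9 fragments in the controls and 112, 70 and 117 fragments in the CITED2-deficient BMDMs. Its mean rose from 0.185 ± 0.0523 to 1.42 ± 0.276 FPKM (SD, n = 3 each), a 7.65-fold difference of the means that passed the fit without a filter on low values (limma adjusted p = 0.000723). It is a product of stromal cells and osteoblasts and is in the list of osteoblast markers. Its level in CITED2-deficient replicates 1 to 3 was 1.56, 1.10 and 1.59 FPKM. Single stromal markers differed in whether replicate 1 stood apart. *Col1a1* did so in replicates 1 to 3 (304.5, 62.0 and 62.6 FPKM), and *Dcn* did not (6.83, 6.19 and 7.53 FPKM). The source of the rise of *Tnfrsf11b* was not tested. *Csf1*, which encodes M-CSF, rose from 16.4, 14.1 and 16.2 FPKM to 44.7, 35.0 and 38.6 FPKM, a log2 fold change of 1.28 ± 0.090 (limma adjusted p = 3.92e-06). It was highest in CITED2-deficient replicate 1, and the source of this rise was not tested either. *Csf1* was the 1 gene tested of the 4 ligands and decoys.

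*Csf1r*, the M-CSF receptor, moved the other way. Its level was 1146, 1122 and 1137 FPKM in the controls and 927, 906 and 914 FPKM in the CITED2-deficient BMDMs. The groups did not overlap, and the log2 fold change was −0.31 ± 0.024 (limma adjusted p = 7.38e-06). The ratio of *Tnfrsf11a* to *Csf1r* in a library was therefore higher in CITED2-deficient BMDMs, at 0.044 ± 0.0031 against 0.033 ± 0.0021 (SD, n = 3 each). The groups of this ratio did not overlap, and the exact two-sided permutation test gave 0.1, the smallest p that 3 against 3 allows. It is 1 of 6 ratios computed within libraries, all chosen after the values were seen and all at that p.

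*Oscar* (ENSMUSG00000054594, minus strand, chr7:3609813-3616157), the collagen receptor that gives osteoclast precursors their second signal, was barely detected. It had 0 fragments in all 3 controls and 2, 0 and 1 in the CITED2-deficient BMDMs, that is 0.0539, 0 and 0.0263 FPKM. The limit that a count of 0 allows, 3 fragments, corresponds to 0.108 to 0.119 FPKM in a control library, and it covers counting error only. The CITED2-deficient values lie under this limit, so no difference was detectable at this depth. In a fit without a filter the adjusted p was 0.465.

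The adaptors of the second signal and *Trem2* were far more abundant than *Calcrl*. *Fcer1g*, the adaptor of OSCAR, stood at 1367, 1338 and 1264 FPKM in the controls and at 1304, 1234 and 1303 FPKM in the CITED2-deficient BMDMs, and it did not pass (log2 fold change −0.047, adjusted p = 0.303 in limma; 0.049 under median-ratio scaling, and −0.087 with an adjusted p of 0.0231 under quantile normalization). *Tyrobp* fell by 0.23 on the log2 scale (adjusted p = 0.000473), from 1285 ± 5.55 to 1094 ± 50.4 FPKM. *Trem2*, a lipid-sensing receptor that pairs with DAP12, fell by 0.15 (adjusted p = 0.00243), but the call was lost under quantile normalization (adjusted p = 0.0545) and median-ratio scaling (adjusted p = 0.211). *Calcrl*, the relative of the calcitonin receptor that forms the CGRP and adrenomedullin receptors, was at 14.0 ± 0.281 and 14.5 ± 0.539 FPKM and did not pass (adjusted p = 0.501).

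*Sirpb1a*, another DAP12-coupled receptor, had the largest rise of the receptor list. It stood at 10.3, 9.96 and 10.7 FPKM in the controls and at 26.6, 33.9 and 32.2 FPKM in the CITED2-deficient BMDMs, a log2 fold change of 1.49 ± 0.084 (limma adjusted p = 9.26e-07). Its near-identical copies *Sirpb1b* and *Sirpb1c* were also higher, by 1.07 and 1.44, and the counting could have split reads between the 3, so the share of each is uncertain. Over the receptor list, 4 of 10 tested genes were higher (these 3 and *Pira2*), 3 were lower (*Csf1r*, *Tyrobp* and *Trem2*) and 3 did not pass (*Tnfrsf11a*, *Calcrl* and *Fcer1g*). Leaving out any 1 library other than control replicate 2 gave 3 higher and 3 lower. The median log2 fold change of the list was 0.084, against −0.10 over all genes.

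*Nfatc1* (ENSMUSG00000033016, minus strand, chr18:80606205-80713071), the transcription factor that RANK signaling induces, was slightly lower in CITED2-deficient BMDMs. Its level was 21.2, 21.1 and 19.8 FPKM in the controls and 17.1, 18.4 and 18.4 FPKM in the CITED2-deficient BMDMs. Every CITED2-deficient library lay below every control. The means were 20.7 ± 0.796 and 18.0 ± 0.742 FPKM, and the log2 fold change was −0.19 ± 0.053 (SE) with a 95% interval of −0.32 to −0.074 (limma adjusted p = 0.0138). Relative to the median of all genes, −0.10, it was −0.093. The call was lost under quantile normalization (−0.13, adjusted p = 0.0907), under median-ratio scaling (−0.10, adjusted p = 0.170) and without control replicate 1 (−0.18, adjusted p = 0.0504).

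The signaling steps between RANK and NFATc1 moved in both directions. Of the 22 genes of RANK signaling, all tested, 5 were higher (*Src*, *Traf3*, *Traf6*, *Ppp3ca* and *Tec*), 8 were lower and 9 did not pass, with a median of −0.078. Under median-ratio scaling 8 were higher and 2 lower, with a median of 0.012. Without control replicate 1, 5 were higher and 5 lower, without CITED2-deficient replicate 3, 6 were higher and 5 lower, and without CITED2-deficient replicate 1, 5 were higher and 6 lower. *Traf6*, the adaptor that RANK recruits, rose from 14.8 ± 0.326 to 17.3 ± 0.285 FPKM (log2 fold change 0.21, limma adjusted p = 0.0061). *Src*, the kinase that osteoclasts need for their ruffled border, rose from 3.07 ± 0.273 to 5.05 ± 0.250 FPKM (0.57, adjusted p = 0.00077), and *Mapk14*, which encodes p38α, had the largest fall, from 95.4 ± 2.07 to 70.8 ± 1.73 FPKM (−0.42, adjusted p = 9.64e-06). *Syk*, the most abundant of the list, stood at 159 ± 1.93 and 150 ± 2.04 FPKM (−0.083, adjusted p = 0.0337), a call lost in 8 of 16 alternatives and with the opposite sign under median-ratio scaling.

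*Nfatc1* was 1 of 4 activators that were lower, with *Fos*, *Jund* and *Tfe3*, while 7 of the 13 tested were higher and 2 (*Ppargc1b* and *Esrra*) did not pass. Under median-ratio scaling 7 were higher and 1 lower. Of the activators, 2 were lower without control replicate 1 (5 higher) or control replicate 3 (6 higher), and 6 were higher and 3 lower without CITED2-deficient replicate 1. The AP-1 partners of NFATc1 diverged. *Fos* fell from 47.2, 46.4 and 47.3 FPKM to 29.8, 32.8 and 31.6 FPKM (log2 fold change −0.57, limma adjusted p = 7.47e-06), and *Jun* rose from 43.1, 44.2 and 45.9 FPKM to 66.0, 70.3 and 75.2 FPKM (0.65, adjusted p = 7.42e-06). The ratio of *Jun* to *Fos* went from 0.945 ± 0.029 to 2.25 ± 0.12 (SD, n = 3 each; exact permutation p = 0.1, the smallest possible). *Spi1*, which encodes PU.1 and was the most abundant activator, stood at 459 ± 5.03 and 492 ± 23.1 FPKM (0.10, adjusted p = 0.0402), a call lost in 6 of 16 alternatives.

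The repressors that hold NFATc1 down in macrophages moved in both directions. Of 10 tested, 5 were higher (*Id2*, *Zeb1*, *Id3*, *Id1* and *Bcl6*), 1 was lower (*Rbpj*) and 4 did not pass (*Irf8*, *Zbtb7a* and *Lilrb4a* among them), with a median of 0.12. The higher calls dropped to 3 when control replicate 1, control replicate 2, CITED2-deficient replicate 1 or CITED2-deficient replicate 2 was left out, with 1 lower each time. *Id2*, an inhibitor of helix-loop-helix factors, rose from 61.2 ± 1.51 to 116 ± 2.29 FPKM (0.91, limma adjusted p = 5.37e-08). *Irf8*, which inhibits NFATc1, was at 209 to 211 FPKM in the controls and at 196 to 215 FPKM in the CITED2-deficient BMDMs (−0.023, adjusted p = 0.634; 0.073 under median-ratio scaling). *Prdm1*, which encodes BLIMP1 and represses *Irf8* and *Bcl6* in osteoclasts, rose from 13.8 ± 0.879 to 18.2 ± 0.837 FPKM (0.37, adjusted p = 0.00101). *Bcl6* stood at 27.8 ± 1.73 and 30.9 ± 1.05 FPKM (0.15, adjusted p = 0.0434), a call lost in 7 of 16 alternatives. *Rbpj*, the DNA-binding factor of Notch signaling, fell by 0.23 (adjusted p = 0.00241), and *Lilrb4a*, an inhibitory receptor, did not pass (0.088, adjusted p = 0.205; past the threshold in 2 alternatives).

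**Figure D2:**
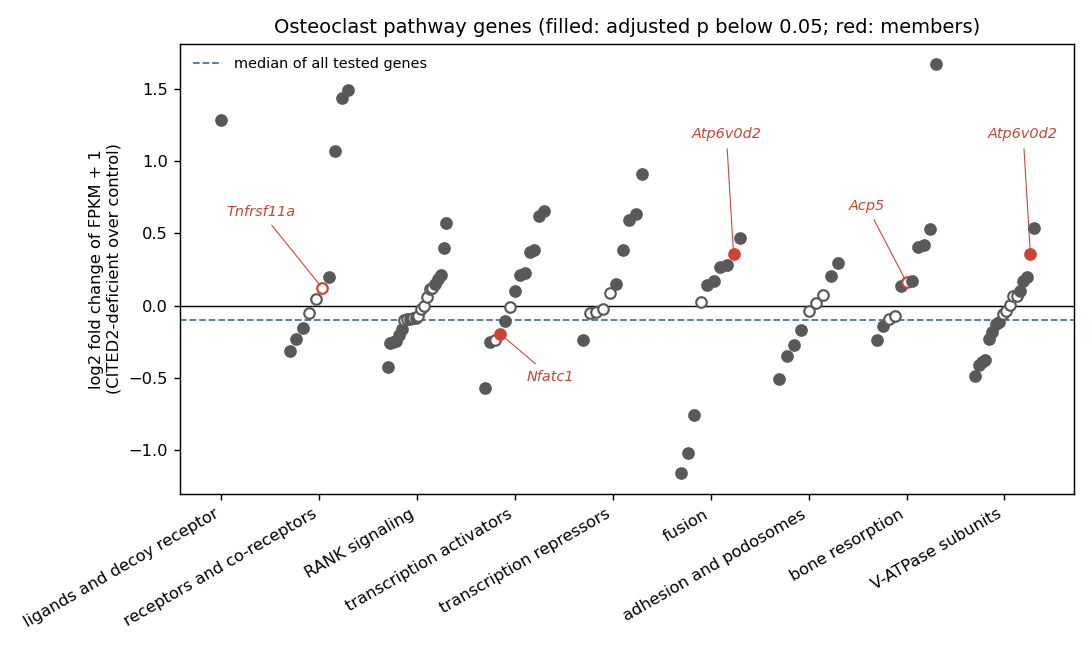
Log2 fold change of FPKM + 1 (CITED2-deficient over control, vertical axis) for every tested gene of 9 osteoclast pathway lists, ordered by value within a list; filled points passed an adjusted p of 0.05 in limma, red points are members, and the dashed line is the median of all genes tested (−0.10). The members lie between −0.19 and 0.36, inside the range of their lists, and Atp6v0d2 appears in 2 lists.

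*Dcstamp* (ENSMUSG00000022303, plus strand, chr15:39745930-39760938), the membrane protein without which osteoclast precursors do not fuse, was expressed at a low level that varied within both groups. It stood at 0.749, 1.502 and 0.872 FPKM in the controls and at 1.46, 0.662 and 0.663 FPKM in the CITED2-deficient BMDMs. Within each group 1 library was about as high as the highest of the other group, so the groups overlapped fully. These values rest on 18, 33 and 21 fragments and on 47, 19 and 22 fragments. Summed over a group, that is 72 fragments in all or 1.31 CPM of recovered fragments (95% Poisson interval 1.02 to 1.64) in the controls and 88 in all or 1.19 CPM (0.953 to 1.46) in the CITED2-deficient BMDMs, intervals that cover counting error only. In the fit without a filter the log2 fold change was −0.090 with a 95% interval of −0.59 to 0.41 (limma adjusted p = 0.803), an interval that holds differences of either sign.

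Most other fusion genes tested were far more abundant. Of 10 tested in the fusion list, 6 were higher, 3 were lower (*Cd81*, *P2rx7* and *Sh3pxd2a*) and 1 did not pass (*Sirpa*), and the median was 0.16. Leaving out control replicate 1, CITED2-deficient replicate 1 or CITED2-deficient replicate 3 gave 4 higher and 3 lower. *Cd47* rose the most, from 186 ± 2.64 to 259 ± 6.03 FPKM (0.47, limma adjusted p = 1.62e-06), while its receptor *Sirpa*, the most abundant of the list at 1645 ± 14.2 and 1673 ± 26.2 FPKM, did not pass (0.024, adjusted p = 0.428; 0.12 and 0.00996 under median-ratio scaling). *Cd81*, a tetraspanin that restrains macrophage fusion, fell the most, from 160, 171 and 153 FPKM to 73.8, 70.0 and 71.3 FPKM (−1.16, adjusted p = 6.68e-08). *P2rx7*, an ATP-gated channel that promotes macrophage fusion, fell by 1.02 (adjusted p = 8.67e-08).

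*Atp6v0d2* (ENSMUSG00000028238, minus strand, chr4:19876841-19922605) showed the largest difference of the members tested. It encodes the d2 subunit of the V-ATPase, the proton pump of lysosomes and of the ruffled border, and mice without it have osteoclasts that fuse poorly. Its level was 135, 147 and 132 FPKM in the controls and 174, 178 and 179 FPKM in the CITED2-deficient BMDMs. The lowest CITED2-deficient library was above the highest control. The means were 138 ± 8.004 and 177 ± 3.00 FPKM (SD, n = 3 each), a 1.28-fold difference. The log2 fold change was 0.36 ± 0.042 (SE), with a 95% interval of 0.26 to 0.45 and an adjusted p of 0.000114 in limma. It stayed past the threshold in all 16 alternatives, from 0.33 to 0.45. Between 3638 and 6809 fragments a library stood behind the values, and 96.9% of the listed genes had a lower mean FPKM.

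The constitutive partner of d2 fell while d2 rose. *Atp6v0d1* encodes d1, the d subunit of most cells, which takes the same place in the pump. It stood at 174, 178 and 171 FPKM in the controls and at 136, 132 and 129 FPKM in the CITED2-deficient BMDMs, a log2 fold change of −0.39 ± 0.032 (limma adjusted p = 1.02e-05). The ratio of *Atp6v0d2* to *Atp6v0d1*, which no scaling of a library can change, was 0.779, 0.827 and 0.773 in the controls and 1.28, 1.35 and 1.39 in the CITED2-deficient BMDMs. In FPKM, which divides by transcript length, d1 was above d2 in every control and below it in every CITED2-deficient library. By fragments, d2 was above d1 in every control, at 3723, 3703 and 3638 against 3494, 3271 and 3440. The order in the controls therefore depends on the lengths used, and the difference of the ratio between the groups does not. The mean ratio was 0.793 ± 0.030 against 1.34 ± 0.056 (SD, n = 3 each), a log2 difference of 0.75 that stayed between 0.73 and 0.79 when any library was left out. The exact permutation p was 0.1, the smallest possible.

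**Figure D3:**
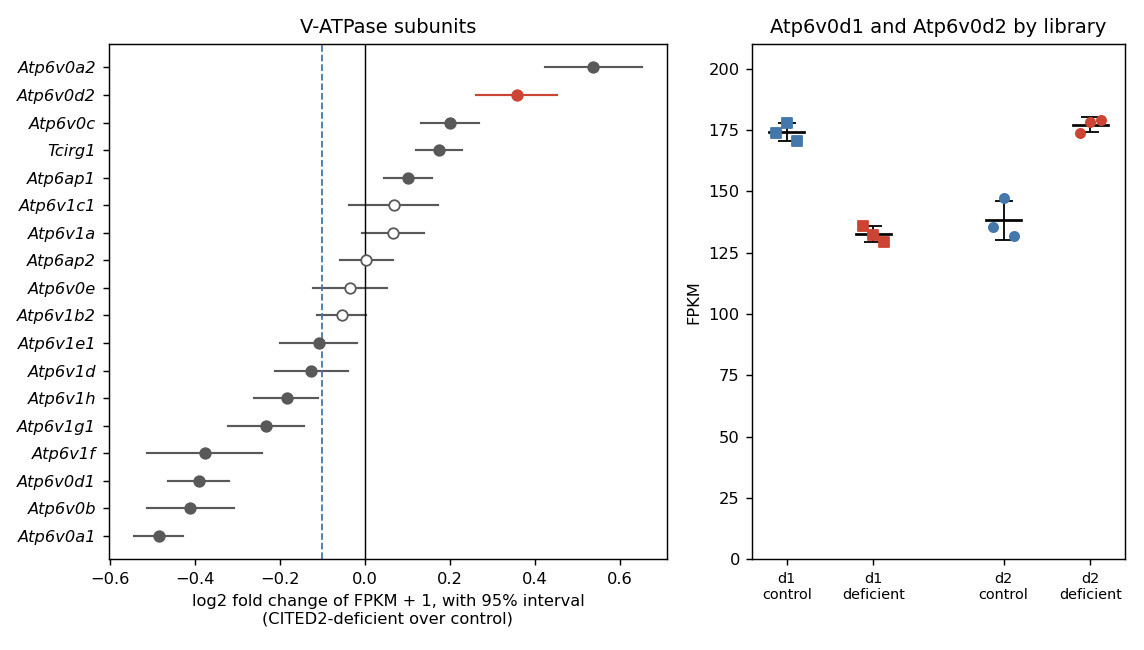
Left, log2 fold change of FPKM + 1 with its 95% interval for the 18 tested V-ATPase subunits (filled: adjusted p below 0.05; red: Atp6v0d2; dashed: median of all genes). Right, FPKM of Atp6v0d1 (squares) and Atp6v0d2 (circles) by library from 0, with mean ± SD: d1 was above d2 in all 3 controls and below it in all 3 CITED2-deficient libraries. The order in the controls depends on the transcript lengths used.

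The subunits of the pump moved in both directions. Of the 18 V-ATPase subunits tested, 5 were higher (*Atp6v0a2*, *Atp6v0d2*, *Atp6v0c*, *Tcirg1* and *Atp6ap1*), 8 were lower and 5 did not pass, with a median of −0.045. Under median-ratio scaling 8 were higher and 5 lower, with a median of 0.050. There were 5 higher and 7 lower when any 1 control, or CITED2-deficient replicate 1 or 2, was left out. Without CITED2-deficient replicate 3 there were 5 higher and 6 lower. The a subunits also diverged: *Atp6v0a2* rose from 23.5 ± 0.727 to 34.6 ± 1.79 FPKM (0.54, limma adjusted p = 2.65e-05), *Tcirg1*, which encodes the a3 subunit of osteoclasts, rose from 650 ± 5.83 to 733 ± 7.84 FPKM (0.17, adjusted p = 0.000292), and *Atp6v0a1* fell from 266 ± 1.99 to 190 ± 1.25 FPKM (−0.49, adjusted p = 5.34e-07). *Tcirg1* was the most abundant subunit in the list.

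*Acp5* (ENSMUSG00000001348, minus strand, chr9:22126727-22135711), which encodes tartrate-resistant acid phosphatase, the classical stain of osteoclasts, was low in BMDMs. Its level was 6.35, 6.57 and 6.08 FPKM in the controls and 6.91, 6.73 and 8.05 FPKM in the CITED2-deficient BMDMs. The groups did not overlap, but CITED2-deficient replicate 3 stood above the other libraries. The means were 6.33 ± 0.246 and 7.23 ± 0.713 FPKM, and the log2 fold change of 0.16 ± 0.083 (SE) had a 95% interval of −0.024 to 0.35 and did not pass (limma adjusted p = 0.131). It did so under quantile normalization (0.24, adjusted p = 0.0464) and median-ratio scaling (0.25, adjusted p = 0.0389), and it was 0.093 without CITED2-deficient replicate 3. The values rest on 139 to 257 fragments a library.

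In the list of bone resorption genes, more were higher than lower, while over all genes 16.7% were higher and 34.6% lower. Of the list 72.7% were called, against 51.3% of all genes. Of 11 tested, with *Acp5* among them, 6 were higher, 2 were lower (*Mmp9* and *Plekhm1*) and 3 did not pass (*Acp5*, *Ostm1* and *Slc4a2*), with a median of 0.16. Under median-ratio scaling 7 were higher and 0 lower, while 6 were higher and 1 lower without CITED2-deficient replicate 1. The lower calls were also 1 when any control, or CITED2-deficient replicate 3, was left out. The higher calls fell to 5 without control replicate 1, control replicate 3 or CITED2-deficient replicate 2. Without the variance trend 5 were higher and 0 lower. *Ctsk*, the collagen-degrading cathepsin of osteoclasts, which fibroblasts also express, rose from 32.0, 33.1 and 33.7 FPKM to 48.2, 45.2 and 50.7 FPKM (0.53 ± 0.049, limma adjusted p = 2.5e-05). The ratio of *Ctsk* to *Acp5* was 5.21 ± 0.29 in the controls and 6.66 ± 0.34 in the CITED2-deficient BMDMs (SD, n = 3 each; exact permutation p = 0.1, the smallest possible). *Mmp14*, a membrane-bound collagenase that stromal cells also express, rose from 5.11 ± 1.21 to 18.3 ± 2.91 FPKM (1.67, adjusted p = 1.65e-05). *Mmp9*, a gelatinase, stood at 15.6 ± 1.95 and 13.0 ± 0.564 FPKM (−0.24, adjusted p = 0.0408), a call lost in 8 of 16 alternatives.

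In the list of adhesion and podosome genes, 2 of 9 were higher (*Vcl* and *Itgav*), 4 were lower (*Pstpip1*, *Pip4k2a*, *Was* and *Pxn*) and 3 did not pass (*Tln1*, *Gsn* and *Itgb3*), with a median of −0.037 that became 0.059 under median-ratio scaling, where 3 were higher and 3 lower. The counts were 2 and 4 when any 1 library was left out. *Vcl*, which encodes vinculin, rose by 0.30 (limma adjusted p = 0.00539), and *Pstpip1*, a partner of WASP in podosomes, fell by 0.50 (adjusted p = 0.000146). *Tln1*, talin, was the most abundant at 631 ± 13.1 and 640 ± 9.80 FPKM (0.020, adjusted p = 0.562; 0.12 and 0.00999 under median-ratio scaling). Over all 98 tested genes of these lists other than the members, 38 were higher, 32 were lower and 28 did not pass, that is 71.4% called against 51.3% of all genes, with a median of −0.00023 against −0.10. The share over all genes was higher among abundant genes. With a filter at a mean FPKM of 5, 72.5% of these list genes were called, against 4986 of 8712 genes in all. Leaving out 1 library gave 30 to 35 higher and 26 to 29 lower, with 32 and 27 without CITED2-deficient replicate 1. Under median-ratio scaling 47 were higher and 17 lower, with a median of 0.095.

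**Figure D4:**
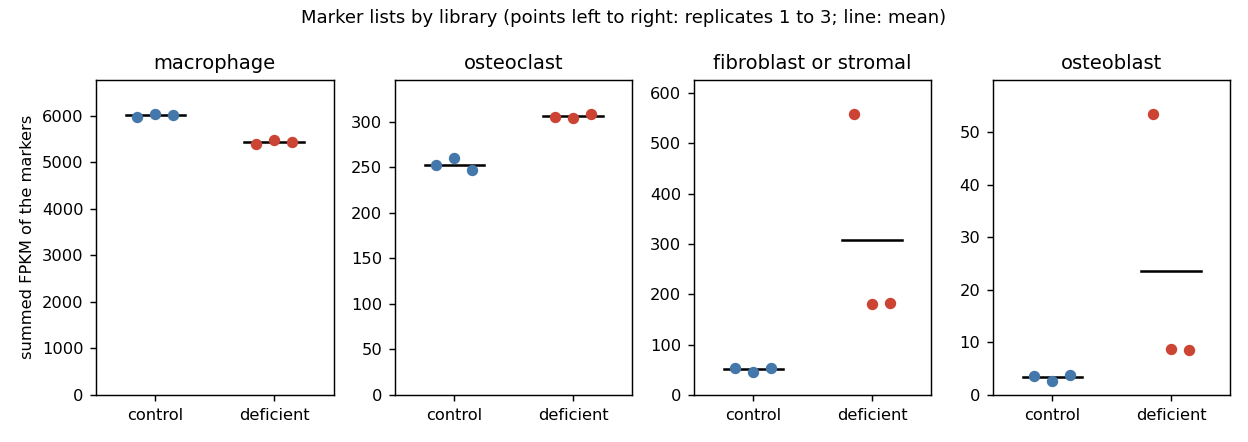
Summed FPKM of 4 marker lists by library, on linear axes from 0 that differ between panels; points are replicates 1 to 3 in order and lines are means. The summed osteoclast markers, mostly Atp6v0d2, were higher in all 3 CITED2-deficient libraries (304 to 309 against 247 to 260 FPKM). Of the 7 osteoclast markers tested, 2 were higher and 2 lower. CITED2-deficient replicate 1 stood apart for fibroblast or stromal (559 FPKM) and osteoblast markers (53.5 FPKM).

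The genes whose profile over the 6 libraries was most like that of a member were found by the root mean square difference of log2(FPKM + 1) values, each centred on its own mean. For *Atp6v0d2* the nearest was *Prdm1* (0.026), followed by *Cox18* (0.034). For *Nfatc1* they were *Arl5b* (0.017), *Angel2* (0.020) and *Pip4p2* (0.020), for *Tnfrsf11a* they were *Arhgap35* (0.028), *Tfb1m* (0.033) and *Xrn1* (0.034), and for *Acp5* they were AC168220.3 (0.028), *Lrg1* (0.028) and *Mcoln2* (0.031). With 6 libraries in 2 groups, genes with a difference of like size between the groups score as alike.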

How the data were processed

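Total RNA of BMDMs was sequenced in 6 libraries (3 control, 3 CITED2-deficient), stranded and rRNA-depleted. Alignment was by STAR to mm10, and the authors deposited 1 FPKM value per gene and library, computed by Cuffdiff. The sources used here give neither tool versions nor whether strand entered the counting. FPKM was fitted as log2(FPKM + 1) with limma 3.58.1 (R 4.3.3), with a variance trend, over 11687 genes of mean FPKM of at least 1; the pseudocount of 1 makes a fold change understate the change of low genes. The fit was tested on simulated data, in which few genes changed and in balanced directions. The dependence on scaling was therefore not tested there. Fragments were read back from FPKM steps with GENCODE vM21 lengths; 96.1% of 22239 genes came out whole within 0.02 in all 6 libraries, and limma-voom on them called 6186 genes. The members and lists were chosen with earlier results of these data known, so no list is independent support. Named genes were all members, their direct partners, and the largest rise, the largest fall and the most abundant gene of each list. Genes that make up a count of 5 or fewer, and the ratios, were named after their values were seen. Alternatives changed pseudocount, filter, scaling, trend, weights, block and libraries. Some genes that the rule names are not reported here.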

Additional observations from a re-analysis of the deposited data

How the results depend on the processing

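*Atp6v0d2* passed the threshold as higher in every alternative run, and the other 3 tested members did not keep their side of it throughout, as given with their values. Requiring a fold change of at least 1.5 as well left 1549 of all genes, 13 of the other pathway genes and 0 of the 4 members (limma; 2 members had an unadjusted p below 0.05, limma-voom called 2, and the largest fold among members was 1.28). Leaving out a library gave 1 to 2 members, with 1 without control replicate 1, where *Nfatc1* missed. Median-ratio scaling turned the sign of, among others, *Irf8* (0.073), *Fcer1g* (0.049) and *Syk* (0.013), and leaving out CITED2-deficient replicate 1 turned *Irf8* (−0.052 to 0.016 over the libraries left out); none of these passed. Of 623 fold changes of named genes under alternatives, 576 kept direction and side, 34 lost the threshold, 8 gained it and 5 changed sign. Replicate numbers are shared between groups, but same-numbered libraries did not deviate together (r of 0.0138, 0.00784 and 0.0402). That does not exclude a shared litter or preparation, which the labels do not give. With the replicate block 5708 genes, 2 members and 65 other pathway genes were called, and *Syk* missed (adjusted p = 0.0646). The causes were not tested. Depth limits *Oscar*, *Dcstamp* and *Tnfsf11*, and 3 libraries a group limit all p-values.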
